A study of Mus musculus with 76 samples.

Results

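The mitochondrial ribosomal protein genes were taken as the protein-coding genes of the count table whose symbol starts with Mrpl or Mrps followed by a digit. There were 78 of them among 14823 genes, 49 Mrpl and 29 Mrps symbols, and all 78 entered the tests. By the known makeup of the mammalian mitochondrial ribosome, 51 encode large-subunit proteins and 26 encode small-subunit proteins. The remaining symbol, Mrps36, belongs to a subunit of the alpha-ketoglutarate dehydrogenase complex and is counted as a member only because of its name.

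Mitochondrial ribosomes translate the messenger RNAs of the mitochondrial genome, which encode core subunits of the oxidative phosphorylation complexes. The ribosomal RNAs come from mitochondrial DNA, whereas all the ribosomal proteins are encoded in the nucleus, made in the cytosol and imported. Some of these proteins descend from bacterial ribosomal proteins and others are found only in mitochondria, and in the developing forebrain progenitors and neurons both need them.

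Bulk RNA sequencing was done on dorsal forebrain from C57BL/6J embryos at E16. One or both parents had received the pyrethroid insecticide α-cypermethrin before mating, over 28 days that began with 7 days of treatment and went on with 3 cycles of 2 days off and 5 days on. The dose labels are 0.3 and 10, with no unit in the sources used here. The 76 libraries form 7 groups, each of embryos of both sexes in 2 labelled batches.

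In Paternal_0.3Cyp (12 libraries) and Paternal_10Cyp (10 libraries) the father received the compound and the mother vehicle. In Maternal_0.3Cyp (12 libraries) and Maternal_10Cyp (8 libraries) the mother received it and the father vehicle. In Both_0.3Cyp (12 libraries) and Both_10Cyp (10 libraries) both parents received the same dose, and in Ctrl (12 libraries) both received vehicle. The litter of each embryo is not labelled, so littermates may be counted as separate samples and the p-values measure only the spread between libraries.

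Library totals ran from 17735597 to 41419156 counts, of which the 78 genes took 0.216% to 0.405%. Dorsal forebrain markers were detected in all groups, with a summed level of 1550 to 4063 CPM (counts scaled to a common, normalised library size) in Paternal_0.3Cyp and of 2060 to 3841 CPM in Ctrl. Some libraries stood apart. Replicate 8 of Paternal_0.3Cyp had the highest share of member counts of the 76 libraries and the highest summed adult erythroid markers, 3750 CPM. Replicate 9 of Paternal_0.3Cyp and replicate 3 of Ctrl had summed diencephalon markers of 496 and 195 CPM, and embryonic globins reached 82.6 CPM in replicate 4 and 21.4 CPM in replicate 3 of Paternal_0.3Cyp and 11.9 and 11.1 CPM in replicates 7 and 8 of Both_10Cyp, against at most 1.40 CPM in Ctrl. Results are given below with all libraries and, where the count changes, without replicate 8 of Paternal_0.3Cyp and without all 7 of these libraries.

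The median log2 fold change of the 78 mitochondrial ribosomal protein genes against Ctrl was positive and small in each of the 6 exposed groups, and 12 to 66 of them passed the test. The number that passed varied with the libraries kept and with the terms of the fit, most in Paternal_0.3Cyp, Maternal_0.3Cyp, Both_0.3Cyp and Both_10Cyp. The summed level of the 78 genes was 2357, 2611 and 4271 CPM (lowest, median and highest library) in Paternal_0.3Cyp, 2425, 2545 and 2840 CPM in Maternal_0.3Cyp and 2444, 2656 and 2854 CPM in Both_0.3Cyp. It was 2364, 2697 and 3037 CPM in Paternal_10Cyp, 2651, 2821 and 3140 CPM in Maternal_10Cyp and 2401, 2637 and 2839 CPM in Both_10Cyp, against 2196, 2406 and 2671 CPM in Ctrl. The median of each exposed group lay above that of Ctrl, and each exposed group overlapped Ctrl, with Maternal_10Cyp overlapping it least. In bulk tissue, fewer cells of a type and less RNA per cell cannot be told apart, and the same holds for a higher level.

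**Figure D1:**
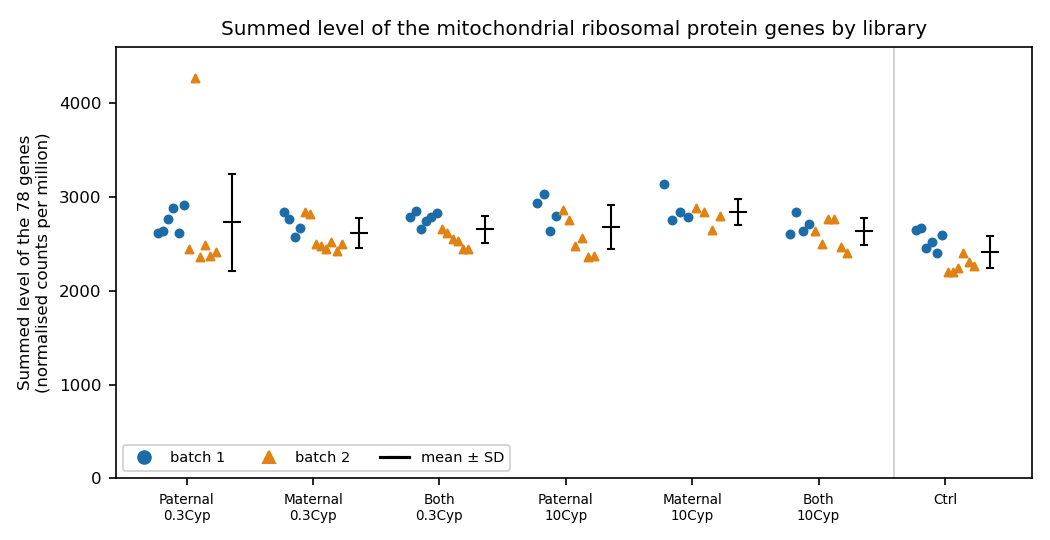
Summed level of the 78 genes in each library (y axis, normalised CPM, starting at 0) for the 6 exposed groups and Ctrl (x axis). Points are libraries, circles batch 1 and triangles batch 2, with mean and SD beside them. Replicate 8 of Paternal_0.3Cyp lies at 4271 CPM, and in Ctrl the batch 2 libraries lie lower than most of batch 1.

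Counted gene by gene, no member was called lower in any exposed group. Called means a Benjamini-Hochberg adjusted p under 0.05 over 14339 genes in edgeR's quasi-likelihood test. Of all genes tested, 12.2%, 12.8%, 11.8%, 10.8%, 20.4% and 1.58% were called lower in Paternal_0.3Cyp, Maternal_0.3Cyp, Both_0.3Cyp, Paternal_10Cyp, Maternal_10Cyp and Both_10Cyp. In Maternal_10Cyp 66 of 78 members rose, with a median log2 fold change of 0.25, a 1.19-fold difference, where 20.4% of all genes tested were called higher. In Paternal_0.3Cyp 58 rose with a median of 0.20, where 15.4% of all genes were called higher. In Paternal_10Cyp 39 rose with a median of 0.16, where 10.7% of all genes were called higher. The corresponding numbers of members were 28 in Both_0.3Cyp, with a median of 0.15 against 10.5% of all genes called higher, and 26 in Maternal_0.3Cyp, with a median of 0.14 against 10.9%. In Both_10Cyp 12 rose, with a median of 0.15, where 2.34% of all genes were called higher. The median over all genes tested lay between -0.01 and 0.01 in the 6 comparisons. All 6 use the same 12 Ctrl libraries, so that their counts are not independent of each other.

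The estimates, called or not, were positive for 78 members in Paternal_0.3Cyp, 76 in Maternal_0.3Cyp, 76 in Both_0.3Cyp, 77 in Paternal_10Cyp, 78 in Maternal_10Cyp and 77 in Both_10Cyp. Libraries in which more than 39 members lay above the Ctrl mean numbered 10 of 12, 12 of 12, 12 of 12, 8 of 10, 8 of 8 and 10 of 10 in the same order of groups, against 5 of 12 in Ctrl. That mean is pooled over batches, and the 5 Ctrl libraries were all from batch 1. The median number of members above it was 63 in Ctrl and 72.5 to 75.5 in the exposed groups in batch 1. In batch 2 it was 13 in Ctrl and 43.5 to 76 in the exposed groups.

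The counts depended on which libraries were kept. Without replicate 8 of Paternal_0.3Cyp, 23 members rose in that group, with a median of 0.11, where 8.54% of all genes were called higher. The other groups then had more calls, 48 in Maternal_0.3Cyp, 57 in Both_0.3Cyp, 58 in Paternal_10Cyp, 72 in Maternal_10Cyp and 45 in Both_10Cyp, with medians of 0.14, 0.16, 0.16, 0.25 and 0.15. All genes called higher were then 16.1%, 16%, 15.9%, 23% and 8.9% in these 5 groups. Without the 7 libraries named above, no member was called in Paternal_0.3Cyp by edgeR's quasi-likelihood test, where the median was 0.09, 29 had an unadjusted p under 0.05 and 0% of all genes were called higher. The members that rose were then 47, 56, 60, 71 and 9 in the other groups, where 16.4%, 16.3%, 17.5%, 23.9% and 1.08% of all genes were called higher. In Maternal_10Cyp 66, 72 and 71 members rose in these sets of libraries. In Both_10Cyp no member was called without replicate 7 or without replicate 8 of that group, with medians of 0.14 and 0.13. Over all genes, 37 and 29 were then called.

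The counts depended on the terms of the fit too. With only the group and its Ctrl in the fit and all libraries kept, edgeR's quasi-likelihood test called 0 members in Paternal_0.3Cyp, where 54 had an unadjusted p under 0.05, the median was 0.20 and 0% of all genes were called higher. The same fits called 44, 57, 55, 68 and 25 members higher in Maternal_0.3Cyp, Both_0.3Cyp, Paternal_10Cyp, Maternal_10Cyp and Both_10Cyp, where 16.2%, 16.9%, 13.9%, 21.9% and 3.12% of all genes were called higher. With the log2 ratio of embryonic to adult globin counts as a covariate, the edgeR counts were 1, 0, 0, 29, 56 and 2 in the 6 groups, where 0.202%, 0.565%, 0.0349%, 8.26%, 14.6% and 0.53% of all genes were called higher. The medians were then 0.18, 0.12, 0.13, 0.16, 0.23 and 0.14, and 38 to 70 members had an unadjusted p under 0.05. With 2 surrogate variables the counts were 49, 1, 3, 28, 57 and 2, where 9.69%, 0.244%, 2.13%, 8.33%, 16.3% and 0.439% of all genes were called higher, and the medians lay between 0.13 and 0.22. DESeq2 moved no count by over 1.5 times.

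A joint test of the 6 exposed groups against Ctrl called 36 members, where 21.7% of all genes were called. The 4 with the lowest p were Mrpl51, Mrpl54, Mrps33 and Mrpl13, and the first 3 encode proteins that only mitochondrial ribosomes have. Of these 4, promoter sequences were at hand only for Mrpl51 and Mrps33, and these are shown. The annotated transcript lengths of Mrpl51 and Mrps33 are 3427 and 717 bases. The sequences are RefSeq promoter windows on GRCm38.p6, of 250 bases before and 50 after the annotated start, given on the gene's strand. The Mrpl51 window is chr6:125191950-125192249 (plus strand), the Mrps33 window chr6:39810887-39811186 (minus strand). Capitals mark matches, on either strand, to CCGGAAG, the core bound by ETS factors such as GABPA, and to GGGCGG, the core bound by Sp factors.
Mrpl51: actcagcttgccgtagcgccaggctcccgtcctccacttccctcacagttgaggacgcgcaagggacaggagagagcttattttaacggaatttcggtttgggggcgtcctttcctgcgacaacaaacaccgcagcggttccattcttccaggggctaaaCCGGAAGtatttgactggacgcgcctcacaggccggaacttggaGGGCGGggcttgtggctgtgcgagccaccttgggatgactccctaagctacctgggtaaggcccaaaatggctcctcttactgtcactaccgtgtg
Mrps33: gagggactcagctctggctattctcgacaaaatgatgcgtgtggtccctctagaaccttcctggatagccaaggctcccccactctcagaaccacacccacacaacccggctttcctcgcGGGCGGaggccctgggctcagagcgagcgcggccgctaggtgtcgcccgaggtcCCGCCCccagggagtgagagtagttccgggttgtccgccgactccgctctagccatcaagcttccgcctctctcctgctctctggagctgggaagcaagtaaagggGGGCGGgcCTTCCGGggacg
The Mrpl51 window holds 1 match to CCGGAAG, at base 161, and 1 to GGGCGG, at base 205. The Mrps33 window holds 1 match to CCGGAAG, at base 289, and 3 to GGGCGG, at bases 121, 175 and 281. For the other members of the 4, Mrpl54 and Mrpl13, no window was at hand.

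Windows were at hand for 69 of the 78 members and for 11516 genes in all. On both strands, CCGGAAG was found in 24 of the 69 member windows (34.8%) and in 16.6% of all windows. The NRF1 motif, GCGC, then any base, then TGCGC, was found in 13 member windows (18.8%) and in 9.66% of all, and the YY1 core AAGATGG in 13 (18.8%) and in 6.68% of all. GGGCGG was found in 34 member windows (49.3%) and in 63.9% of all, and the E-box CACGTG in 5 (7.25%) and in 9.71% of all. No motif searched contains another. A match describes letters in a window and nothing about binding.

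Mrpl51 (chr6:125191801-125196269, plus strand, GRCm38) rose in 5 of the 6 groups. Its level was 45.4, 48.4 and 50.3 CPM (lowest, median and highest) in Maternal_10Cyp, 40.1, 42.8 and 49.5 CPM in Maternal_0.3Cyp and 38.1, 40.6 and 76.9 CPM in Paternal_0.3Cyp. It was 39.9, 42.9 and 48.4 CPM in Both_0.3Cyp, 38.4, 44.8 and 49.3 CPM in Paternal_10Cyp and 39.9, 42.0 and 45.8 CPM in Both_10Cyp, against 33.6, 37.9 and 43.2 CPM in Ctrl. All 8 libraries of Maternal_10Cyp lay above the highest Ctrl library, while the other exposed groups overlapped Ctrl. The log2 fold change in Maternal_10Cyp was 0.34 (SE 0.066; mean 48.0 ± 1.89 CPM, n = 8, against 37.9 ± 3.06 CPM in Ctrl, n = 12, SD; adjusted p = 0.000145, edgeR's quasi-likelihood test with Benjamini-Hochberg adjustment). In the other groups it was 0.25 in Paternal_0.3Cyp, 0.22 in Maternal_0.3Cyp, 0.20 in Both_0.3Cyp and 0.23 in Paternal_10Cyp, all called, and 0.18 in Both_10Cyp, where the edgeR adjusted p was 0.0716. Without replicate 8 of Paternal_0.3Cyp the value in that group was 0.15 (edgeR adjusted p = 0.0139). In Both_10Cyp Mrpl51 was then called at 0.18 (edgeR adjusted p = 0.00128).

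Mrps33 (chr6:39801804-39810988, minus strand) rose in all 6 groups. Its level was 41.5, 44.4 and 52.7 CPM in Maternal_10Cyp, 29.0, 37.5 and 73.8 CPM in Paternal_0.3Cyp and 32.3, 38.3 and 48.5 CPM in Maternal_0.3Cyp. It was 33.8, 38.9 and 48.7 CPM in Both_0.3Cyp, 35.2, 39.5 and 52.9 CPM in Paternal_10Cyp and 35.1, 40.2 and 46.8 CPM in Both_10Cyp, against 24.6, 34.7 and 37.9 CPM in Ctrl. Again the 8 Maternal_10Cyp libraries were all above Ctrl and the other groups overlapped it. The log2 fold change in Maternal_10Cyp was 0.47 (SE 0.091; mean 45.3 ± 3.54 CPM, n = 8, against 32.9 ± 4.76 CPM in Ctrl, n = 12, SD; edgeR adjusted p = 0.000159), and it lay between 0.26 and 0.35 in the other groups. In Paternal_0.3Cyp it was 0.30, and 0.17 without replicate 8 (edgeR adjusted p = 0.0498).

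Mrpl54 (chr10:81264713-81266934, minus strand) rose in all 6 groups too. Its level was 17.0, 19.6 and 21.9 CPM in Maternal_10Cyp, 14.7, 19.0 and 31.0 CPM in Paternal_0.3Cyp and 15.4, 19.7 and 22.3 CPM in Both_10Cyp, against 11.9, 15.1 and 18.1 CPM in Ctrl. These 3 groups overlapped Ctrl, and Paternal_0.3Cyp spread most widely. Its log2 fold change was 0.40 in Paternal_0.3Cyp (SE 0.081, edgeR adjusted p = 0.00225; 0.31 without replicate 8), 0.37 in Maternal_10Cyp and 0.36 in Both_10Cyp (SE 0.084, edgeR adjusted p = 0.0187).

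Mrpl13 (chr15:55534094-55557748, minus strand), whose protein has a bacterial homologue, was called in 5 groups. Its level was 47.3, 48.9 and 57.3 CPM in Maternal_10Cyp and 41.7, 45.8 and 53.1 CPM in Both_0.3Cyp, against 33.5, 39.0 and 44.6 CPM in Ctrl. All Maternal_10Cyp libraries were above Ctrl, and Both_0.3Cyp overlapped it. Its log2 fold change was 0.39 in Maternal_10Cyp (SE 0.080, edgeR adjusted p = 0.000242) and 0.24 in Both_10Cyp, the group without a call (edgeR adjusted p = 0.0509). The gene overlaps Mtbp on the opposite strand, and whether the counting used strand is not given in the sources used here.

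**Figure D2:**
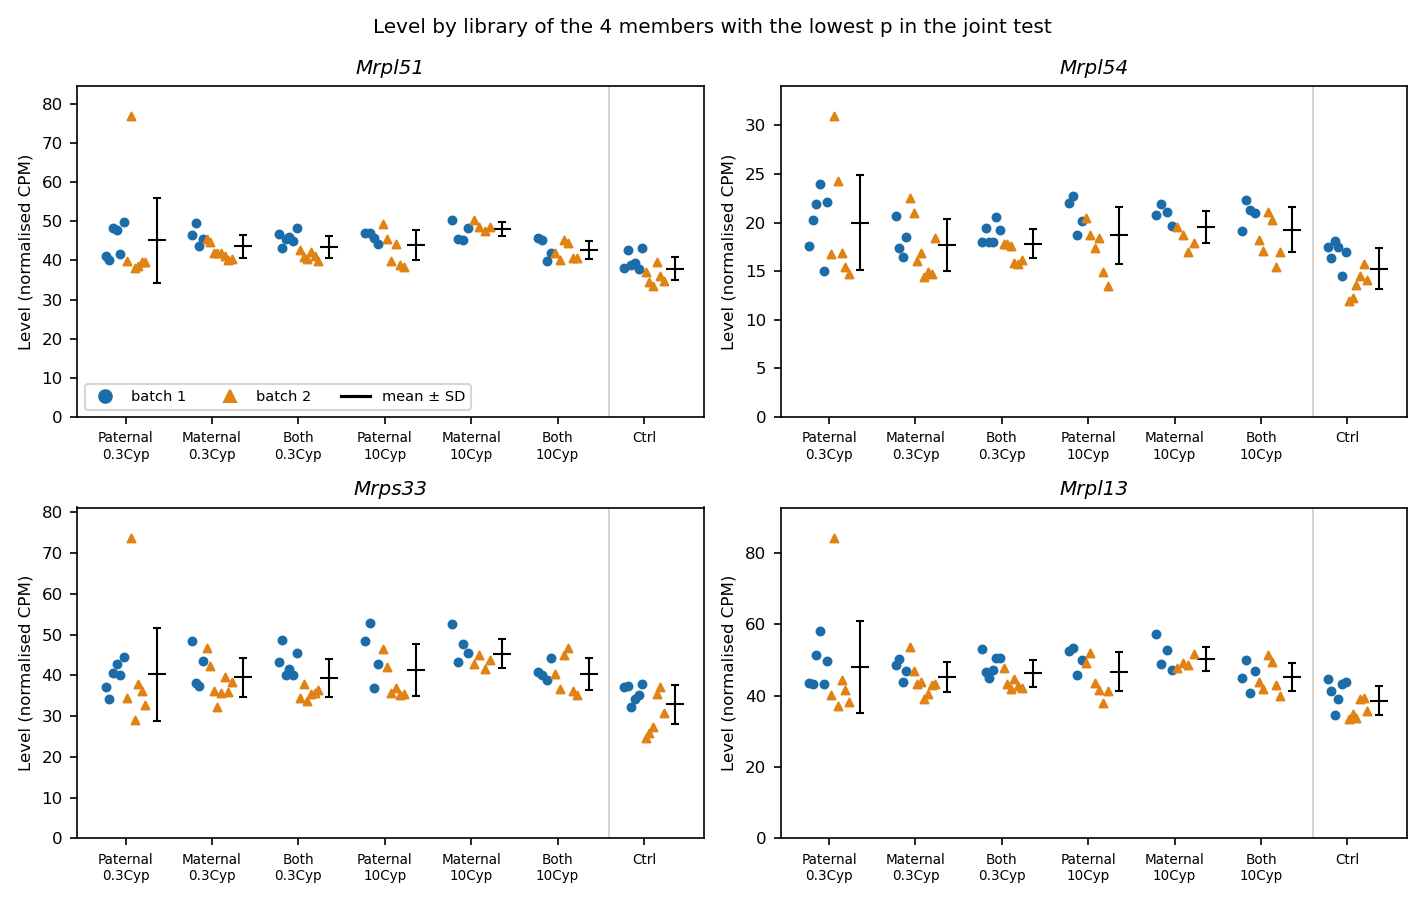
Level of Mrpl51, Mrpl54, Mrps33 and Mrpl13 in each library (y axis, normalised CPM, starting at 0) by group (x axis), circles for batch 1 and triangles for batch 2, with mean and SD. The Maternal_10Cyp points of Mrpl51, Mrps33 and Mrpl13 lie above all Ctrl points, and the isolated high point in Paternal_0.3Cyp is replicate 8.

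Genes of both subunits rose. In Maternal_10Cyp 43 of 51 large-subunit genes rose, with a median log2 fold change of 0.25, and 22 of 26 small-subunit genes, with a median of 0.25. In Paternal_0.3Cyp the counts were 38 large and 19 small, in Paternal_10Cyp 26 and 12, in Both_0.3Cyp 20 and 7, in Maternal_0.3Cyp 19 and 7, and in Both_10Cyp 7 and 5. Of all genes, 20.4% were called higher in Maternal_10Cyp and 15.4%, 10.7%, 10.5%, 10.9% and 2.34% in these 5 groups. The difference between subunits was not tested. Genes with a bacterial homologue and mitochondria-specific genes both rose too, with medians in Maternal_10Cyp of 0.25 (23 of 29 called) and 0.25 (20 of 22) for the large subunit and of 0.28 (13 of 17) and 0.23 (9 of 9) for the small one, in the comparison where 20.4% of all genes were called higher. Mrps36, the dehydrogenase subunit, rose in 4 groups, by 0.20 in Paternal_0.3Cyp, 0.17 in Both_0.3Cyp, 0.22 in Paternal_10Cyp and 0.21 in Maternal_10Cyp.

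**Figure D3:**
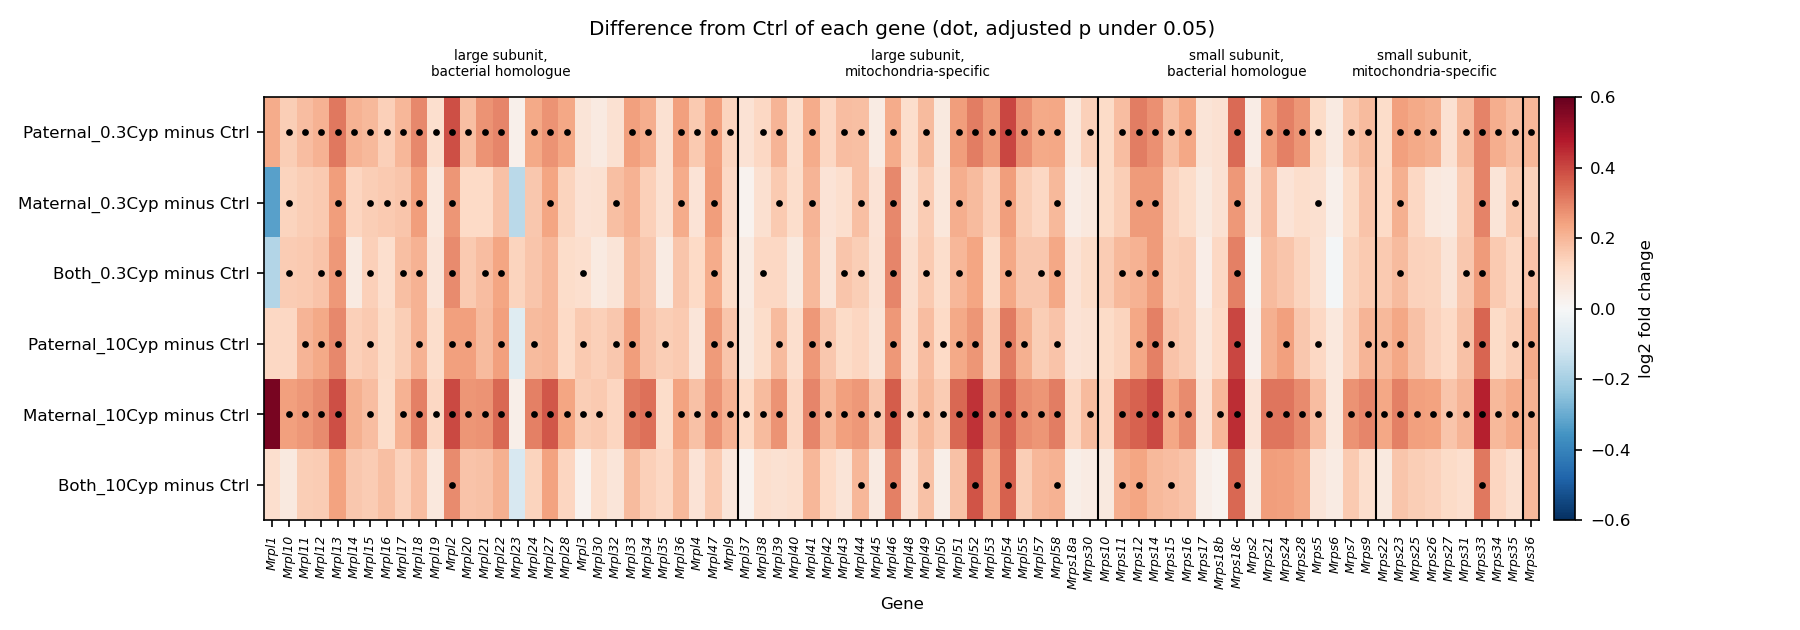
Log2 fold change of each of the 78 genes (x axis, grouped by subunit and origin; Mrps36 stands alone at the right) in each exposed group minus Ctrl (rows). Color runs over -0.6 to 0.6, red for higher in the exposed group, and dots mark adjusted p under 0.05. No dot stands on a blue cell, and Maternal_10Cyp has the most dots, 66.

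Among the large-subunit genes with bacterial homologues, Mrpl2, whose bacterial relative lies near the peptidyl transferase centre, was called in all 6 groups. It was at 25.1, 31.2 and 66.5 CPM in Paternal_0.3Cyp, against 22.9, 27.2 and 32.1 CPM in Ctrl, and the groups overlapped. Its log2 fold change was 0.39 in Paternal_0.3Cyp (SE 0.081, edgeR adjusted p = 0.0025), and 0.26 without replicate 8. Mrpl18, whose bacterial relative binds 5S ribosomal RNA, was at 34.7, 39.0 and 44.7 CPM in Maternal_0.3Cyp, against 26.4, 33.7 and 39.4 CPM in Ctrl, with a log2 fold change of 0.25 (SE 0.067, edgeR adjusted p = 0.008). It was called in 5 groups and overlaps Tcp1 on the opposite strand. Mrpl3, also with a bacterial homologue, was at 59.9, 66.5 and 71.5 CPM in Paternal_10Cyp, against 52.9, 59.1 and 68.4 CPM in Ctrl. Its log2 fold change was 0.16 in Paternal_10Cyp (SE 0.040, edgeR adjusted p = 0.00656) and 0.02 in Both_10Cyp (edgeR adjusted p = 0.757), with calls in 3 groups. Mrpl18 was called in all 6 groups once replicate 8 of Paternal_0.3Cyp was left out. Mrpl3 was then called in all but Paternal_0.3Cyp and Both_10Cyp.

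Of the mitochondria-specific large-subunit genes, Mrpl58 encodes a peptidyl-tRNA hydrolase that is built into the ribosome and releases stalled chains. It was called in all 6 groups, and in Both_0.3Cyp it was at 38.1, 43.4 and 50.7 CPM, against 32.0, 36.7 and 43.0 CPM in Ctrl. Most Both_0.3Cyp libraries, 7 of 12, exceeded the highest Ctrl library, and the log2 fold change there was 0.23 (SE 0.057, edgeR adjusted p = 0.00686). Mrpl46 was at 15.5, 18.9 and 22.1 CPM in Maternal_0.3Cyp and 17.0, 19.2 and 23.0 CPM in Both_10Cyp, against 12.6, 15.7 and 19.2 CPM in Ctrl, with 5 libraries of each exposed group above the highest Ctrl library. Its log2 fold changes were 0.29 in Maternal_0.3Cyp (edgeR adjusted p = 0.00659) and 0.30 in Both_10Cyp (edgeR adjusted p = 0.0247). It was called in all 6 groups and overlaps another member, Mrps11, on the opposite strand. In Paternal_0.3Cyp its call was lost without replicate 8, at a log2 fold change of 0.12 (edgeR adjusted p = 0.14). Mrpl52 was at 39.9, 48.4 and 51.7 CPM in Both_10Cyp, against 27.2, 35.6 and 45.4 CPM in Ctrl, a log2 fold change of 0.38 (SE 0.0998, edgeR adjusted p = 0.0295).

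In the small subunit, Mrps12, whose bacterial relative forms part of the decoding centre, was called in all 6 groups. It was at 20.4, 25.3 and 44.7 CPM in Paternal_0.3Cyp and 21.4, 25.6 and 28.4 CPM in Maternal_0.3Cyp, against 18.4, 22.4 and 24.1 CPM in Ctrl. In Paternal_0.3Cyp 8 of 12 libraries and in Maternal_0.3Cyp 9 of 12 exceeded the highest Ctrl library, and the log2 fold changes were 0.31 and 0.26 (edgeR adjusted p = 0.00301 and 0.00886). Without replicate 8 the value in Paternal_0.3Cyp was 0.21. Mrps18c was at 11.7, 15.6 and 19.6 CPM in Paternal_10Cyp, against 10.1, 11.03 and 16.5 CPM in Ctrl. The groups overlapped, and the log2 fold change was 0.40 (SE 0.093, edgeR adjusted p = 0.0042).

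Each member was called in 0 to 6 groups. There were 8 members called in all 6, namely Mrpl2, Mrpl46, Mrpl49, Mrpl54, Mrpl58, Mrps12, Mrps18c and Mrps33, and 8 called in none, namely Mrpl1, Mrpl23, Mrpl40, Mrps2, Mrps6, Mrps10, Mrps17 and Mrps18a. Of all genes tested, 1.52% were called higher in all 6 groups and 75.3% in none. Without replicate 8 of Paternal_0.3Cyp, 17 members were called in all 6 and 4 in none, where 3.85% of all genes were called higher in all 6 and 72.6% in none. Mrpl46 was not among those 17. Without the 7 libraries 0 members and 0% of all genes were called higher in all 6 by edgeR's quasi-likelihood test, since none was called in Paternal_0.3Cyp. The 6 comparisons share their Ctrl libraries, so calls in several groups do not add to each other. Among those without a call, Mrps2 had log2 fold changes of 0.02 to 0.08, Mrps17 of 0.04 to 0.09 and Mrps6 of -0.01 to 0.07. Mrps6 shares its strand and position with Slc5a3, so that the assignment of its reads is uncertain.

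Levels per length spanned a wide range. Mrpl34, Mrpl52 and Mrpl20 had the highest mean levels over the 76 libraries, 102, 97.7 and 81.2 CPM per kilobase of transcript. Mrpl1, Mrpl35 and Mrpl47 had the lowest, 0.223, 5.79 and 6.16 CPM per kilobase. Mrpl1, which encodes a protein of the stalk at the exit site in bacterial ribosomes, was at 0, 0.84 and 2.90 CPM in Maternal_10Cyp, against 0, 0.76 and 1.78 CPM in Ctrl. Its log2 fold changes ran from -0.33 in Maternal_0.3Cyp to 0.57 in Maternal_10Cyp, the widest of any member, and no group was called. Mrpl47, also among the lowest, was called in 5 groups, by 0.22 to 0.27, and overlaps Actl6a and Ndufb5 on the opposite strand. Mrpl35 was called in 1 group, and Mrpl34, the highest per kilobase, in 2.

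The spread between Ctrl libraries differed between members. The coefficient of variation was highest for Mrpl1 (79.5%), Mrpl23 (24.7%) and Mrps18c (16.9%). It was lowest for Mrpl38 (5.25%), Mrps25 (5.57%) and Mrpl48 (5.73%). Mrpl23 was at 4.04, 6.61 and 7.60 CPM in Maternal_10Cyp, against 3.80, 5.89 and 8.71 CPM in Ctrl, and had log2 fold changes of -0.16 to 0.13, with no call. Mrpl38 was called in 3 groups with log2 fold changes of 0.09 to 0.19, Mrps25 in 2 with 0.12 to 0.25, and Mrpl48 in 1 with 0.08 to 0.14. Once replicate 8 of Paternal_0.3Cyp was left out, Mrps25 was called in every group but Paternal_0.3Cyp. Mrpl38 and Mrpl48 were then called in Both_0.3Cyp, Paternal_10Cyp and Maternal_10Cyp. Mrps25 and Mrpl48 overlap Nr2c2 and Rab6a on the opposite strand.

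Member transcripts are short, with a median annotated length of 1224.5 bases against 2788.5 over all genes tested, and 64 of the 78 lie below that second value. Short transcripts as a class were also higher in the exposed groups. Among the 1042 genes tested with a transcript under 1000 bases, 52.3% were called higher in Maternal_10Cyp and the median log2 fold change was 0.23, against 25 of 30 members of that length and a median of 0.28. In Maternal_0.3Cyp both medians were 0.14, and 8 of 30 such members were called against 22.5% of such genes. In Both_10Cyp the medians were 0.19 for the members and 0.15 for all genes of that length. Few genes of that length were called lower, from 0.384% of them in Both_10Cyp to 2.30% in Maternal_10Cyp.

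Among long transcripts, member medians were positive and those of all genes negative. In Maternal_10Cyp the 20 members over 2000 bases had a median of 0.22 and 16 were called higher, where the 10003 genes of that length had a median of -0.07 and 12.4% were called higher. The member and all-gene medians over 2000 bases were 0.19 and -0.03 in Paternal_0.3Cyp, 0.10 and -0.03 in Maternal_0.3Cyp and 0.12 and -0.04 in Both_0.3Cyp. They were 0.15 and -0.05 in Paternal_10Cyp and 0.10 and -0.03 in Both_10Cyp. The called members of this class numbered 13, 8, 6, 10 and 1 of 20 in the same 5 groups, where 8.66%, 7.60%, 7.04%, 6.46% and 1.08% of all genes over 2000 bases were called higher. Between 1000 and 2000 bases, 25 of 28 members rose in Maternal_10Cyp with a median of 0.24, where 34.8% of genes rose with a median of 0.11.

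**Figure D4:**
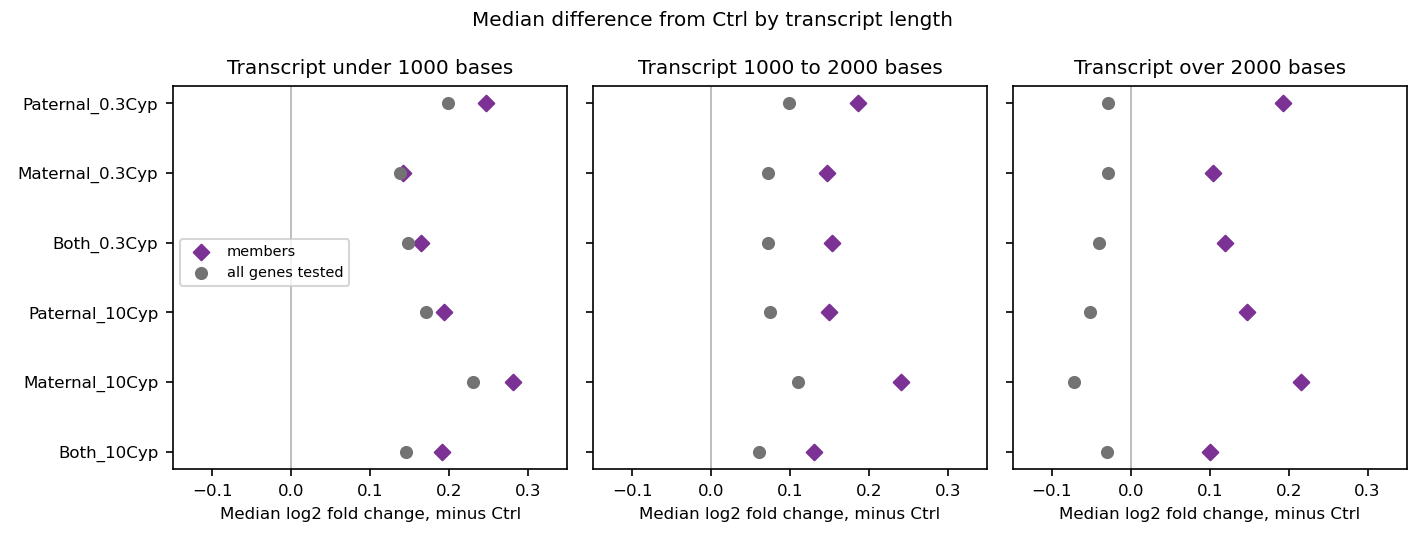
Median log2 fold change (x axis, exposed group minus Ctrl) of members (diamonds) and of all genes tested (circles) for each exposed group (y axis), in 3 classes of annotated transcript length. Over 2000 bases the circles lie below 0 and the diamonds above 0, and under 1000 bases the circles and diamonds lie close together.

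With offsets for GC content and transcript length in the same fit, the member medians were 0.09 in Paternal_0.3Cyp, 0.06 in Maternal_0.3Cyp, 0.07 in Both_0.3Cyp, 0.07 in Paternal_10Cyp, 0.12 in Maternal_10Cyp and 0.07 in Both_10Cyp. The members called higher were then 29, 15, 16, 18, 38 and 9, where 12.4%, 9.51%, 9.95%, 7.02%, 18% and 2.97% of all genes were called higher. The members called lower were 3, 0, 3, 1, 4 and 1, in the same order. The share of all genes called lower under the offsets is not given here, so these counts cannot be read as particular to the members. Under the offsets the 20 members over 2000 bases had a median of 0.27 in Maternal_10Cyp, with 16 called higher, and the 30 under 1000 bases had a median of 0.04, with 7 called higher. The members called lower under the offsets were Mrpl30, Mrps6, Mrps17 and Mrps18a, all shorter than 1000 bases. Mrpl51, at an annotated 3427 bases, had a log2 fold change of 0.37 in Maternal_10Cyp under the offsets, and Mrps33, at an annotated 717 bases, 0.20. Which annotated transcripts of a gene were present was not tested.

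Library by library, the member level followed the level of other short genes. The measure was the median log2 deviation from the Ctrl mean, over the 78 members and over 1012 other genes under 1000 bases. Across the 76 libraries Pearson's r was 0.979 and Spearman's rho 0.961 (permutation p = 1e-05 each, the smallest that 100000 permutations can give; Benjamini-Hochberg adjusted 2e-05 over 10 values from 2 relations). Without the libraries farthest from the median, replicate 7 of Ctrl and replicate 8 of Paternal_0.3Cyp, r was 0.965, and within batches it was 0.945 in batch 1 (34 libraries) and 0.984 in batch 2 (42 libraries). Replicate 8 of Paternal_0.3Cyp deviated by 0.85 in the members and 0.89 in the other short genes. In that library the members over 2000 bases deviated by 0.63, while other genes over 2000 bases deviated by -0.22. The points share a library's total and scaling, and whether the difference in short transcripts sets that in members was not tested beyond the values with offsets. The permutations disregarded group, so their p-values mix the group difference with variation between libraries within a group.

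**Figure D5:**
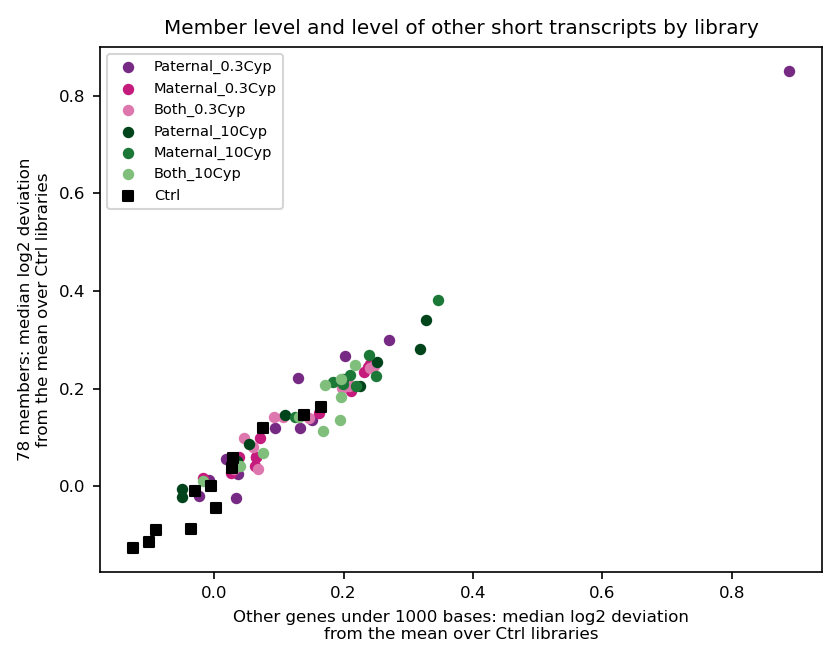
Median log2 deviation from the Ctrl mean of the 78 members (y axis) against that of 1012 other genes with transcripts under 1000 bases (x axis), 1 point for each of 76 libraries, colored by group, with squares for Ctrl. The points run along a line, and replicate 8 of Paternal_0.3Cyp lies apart at 0.89 and 0.85.

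Member medians were positive in both batches. When each group was given its own mean in each batch, in 1 fit of all libraries, the member medians in batch 1 were 0.11 in Paternal_0.3Cyp, 0.08 in Maternal_0.3Cyp, 0.13 in Both_0.3Cyp, 0.15 in Paternal_10Cyp, 0.18 in Maternal_10Cyp and 0.10 in Both_10Cyp. By edgeR's quasi-likelihood test none of the members was called in batch 1, where 13, 4, 13, 31, 32 and 2 had an unadjusted p under 0.05 and 0.00697%, 0%, 0%, 0.00697%, 0.133% and 0% of all genes were called. Fits of batch 1 alone called 19 members in Maternal_10Cyp and 6 in Paternal_10Cyp, where 2.52% and 1.15% of all genes were called higher. They called 0 in Paternal_0.3Cyp, Maternal_0.3Cyp, Both_0.3Cyp and Both_10Cyp by the edgeR test, where 33, 19, 43 and 17 members had an unadjusted p under 0.05 and 0.028%, 0%, 0% and 0% of all genes were called higher. In batch 2 the medians were 0.29, 0.18, 0.16, 0.17, 0.30 and 0.18, with 53, 29, 7, 18, 58 and 23 members called higher, where 11.6%, 11.5%, 6.52%, 9.99%, 18% and 10.9% of all genes were called higher. Replicate 8 of Paternal_0.3Cyp is a batch 2 library with a median member deviation from the Ctrl mean of 0.85 on the log2 scale, where the other 5 batch 2 libraries of its group lie between -0.02 and 0.06. Without it the batch 2 median of Paternal_0.3Cyp was 0.09 and edgeR called 0 members there, with 22 at an unadjusted p under 0.05 and 0.014% of all genes called higher. The batch 2 counts of the other groups were then 49, 38, 42, 74 and 45, where 16.6%, 13.3%, 15.3%, 21% and 16.1% of all genes were called higher. In batch 1 the same fit called 12 members in Paternal_10Cyp and 26 in Maternal_10Cyp, where 1.49% and 4.82% of all genes were called higher, and 0 in Paternal_0.3Cyp, Maternal_0.3Cyp, Both_0.3Cyp and Both_10Cyp, with 32, 17, 38 and 16 at an unadjusted p under 0.05 and 0.0279%, 0%, 0% and 0% of all genes called higher.

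The summed level averaged 2882 ± 176 CPM in Maternal_10Cyp (SD, n = 4) and 2548 ± 106 CPM in Ctrl (SD, n = 6) in batch 1, and 2795 ± 102 CPM in Maternal_10Cyp (SD, n = 4) and 2271 ± 78.7 CPM in Ctrl (SD, n = 6) in batch 2. A joint test of group by batch called no member in edgeR, DESeq2 or limma, with 0, 1 and 21 members at an unadjusted p under 0.05. Without replicate 8 of Paternal_0.3Cyp edgeR again called none, with 6 members at an unadjusted p under 0.05.

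Member medians were positive in both sexes. The medians among female embryos were 0.10 in Paternal_0.3Cyp, 0.10 in Maternal_0.3Cyp, 0.15 in Both_0.3Cyp, 0.15 in Paternal_10Cyp, 0.22 in Maternal_10Cyp and 0.17 in Both_10Cyp, and among male embryos 0.26, 0.15, 0.13, 0.18, 0.24 and 0.13. With all libraries, members were called within a sex in Maternal_10Cyp, 9 in females and 34 in males, and in Paternal_0.3Cyp, 51 in males. Of all genes, 10.5%, 13.7% and 15.9% were called in these comparisons. In the other groups the edgeR test called no member, where 0% of all genes were called in females and 0.3%, 0%, 0.119% and 0.0279% in males of Maternal_0.3Cyp, Both_0.3Cyp, Paternal_10Cyp and Both_10Cyp. There 7 to 25 members in females and 23 to 36 in males had an unadjusted p under 0.05. Replicate 8 of Paternal_0.3Cyp is male. Without it the male median of Paternal_0.3Cyp was 0.10 and edgeR called 0 members in males there, with 23 at an unadjusted p under 0.05 and 0.167% of all genes called higher, and it called 7 in females, where 4.87% of all genes were called higher. In males of Maternal_0.3Cyp, Both_0.3Cyp, Paternal_10Cyp, Maternal_10Cyp and Both_10Cyp the counts were then 32, 9, 30, 59 and 5, where 8.24%, 1.61%, 8.05%, 14.4% and 0.579% of all genes were called higher. In females of Maternal_10Cyp 51 were called, where 11.7% of all genes were called higher, and in females of Maternal_0.3Cyp, Both_0.3Cyp, Paternal_10Cyp and Both_10Cyp the edgeR test called 0, with 25, 46, 45 and 43 at an unadjusted p under 0.05 and 0%, 0%, 0.0279% and 0.0837% of all genes called higher. Calls within a sex thus varied with 1 library.

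A joint test of group by sex called no member in edgeR, DESeq2 or limma, with 0 members at an unadjusted p under 0.05 in each, and in edgeR also without replicate 8 of Paternal_0.3Cyp. Male embryos minus female embryos had a member median of 0.02, with no member called in edgeR, DESeq2 or limma, 1, 1 and 2 at an unadjusted p under 0.05 and 0.0907% of all genes called in edgeR.

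Between exposed groups no member was called by edgeR's quasi-likelihood test, in 7 comparisons that use no Ctrl library. In these 0.0628% of all genes were called for Paternal_10Cyp minus Paternal_0.3Cyp, 0.00697% each for Both_10Cyp minus Both_0.3Cyp and Maternal_0.3Cyp minus Paternal_0.3Cyp, and 0% for the others. Maternal_10Cyp had the highest member median against Ctrl of the 6 groups. Its difference from Maternal_0.3Cyp was positive for 76 of 78 members, with a median of 0.11 and 15 members at an unadjusted p under 0.05, and limma called 10 of them higher, where it called 1.98% of all genes higher. Both_10Cyp minus Maternal_10Cyp was negative for most members, with 2 of 78 positive, a median of -0.10 and 17 at an unadjusted p under 0.05. There limma called 25 members lower, where it called 9.56% of all genes lower, and edgeR without the 7 libraries that stood apart called 31 lower, where 11.3% of all genes were lower. Maternal_10Cyp minus Paternal_10Cyp had a median of 0.08 and 5 members at an unadjusted p under 0.05.

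The remaining comparisons had member medians close to 0. They were -0.02 for Paternal_10Cyp minus Paternal_0.3Cyp, -0.004 for Both_10Cyp minus Both_0.3Cyp, -0.04 for Maternal_0.3Cyp minus Paternal_0.3Cyp and -0.03 for Both_10Cyp minus Paternal_10Cyp, with 1, 1, 4 and 2 members at an unadjusted p under 0.05. DESeq2 called none in any of the 7, and limma called 1 higher in Paternal_10Cyp minus Paternal_0.3Cyp, where 1.01% of all genes were called higher. A comparison without a call does not show that the groups were equal.

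The wider mitochondrial translation system was followed in 5 further lists of nuclear genes. Of the 5 mitochondrial ribosome subunit genes with other symbols, 4 rose in Maternal_10Cyp, with a median of 0.26, where 20.4% of all genes were called higher and as many, 20.4%, lower. Among them Gadd45gip1, a large-subunit protein, rose by 0.30 (44.4 ± 3.50 CPM in Maternal_10Cyp, n = 8, against 36.0 ± 3.96 CPM in Ctrl, n = 12, SD; edgeR adjusted p = 0.000584) and Ptcd3, a small-subunit protein, by 0.15 (edgeR adjusted p = 0.00136). Of 26 ribosome assembly genes 12 rose and 1 fell in Maternal_10Cyp, with a median of 0.15. Nsun4, a ribosomal RNA methyltransferase needed for assembly, rose by 0.35 (edgeR adjusted p = 0.000204), and Mpv17l2, an inner-membrane assembly protein, by 0.41 (edgeR adjusted p = 0.00054). Dhx30, an RNA helicase of assembly, was the one that fell, by 0.10.

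Of 16 translation factors and partners 3 rose in Maternal_10Cyp, with a median of 0.07, a share no higher than the 20.4% of all genes called higher there. They included Slirp, which stabilises mitochondrial messenger RNAs, by 0.37, and Oxa1l, the membrane insertase, by 0.11. Of 20 mitochondrial tRNA synthetases 7 rose and 1 fell, with a median of 0.09. Rars2 and Sars2, for arginine and serine, rose by 0.26 each, and Mars2, for methionine, fell by 0.34. Of 10 genes of mitochondrial transcription and genome maintenance 3 rose, with a median of 0.15, too few genes to read against the 20.4% of all genes. They included Ssbp1, the mitochondrial single-strand DNA binding protein, by 0.42 and Tfam, which packages mitochondrial DNA, by 0.18. In Both_10Cyp these 5 lists had 2, 1, 1, 0 and 0 genes called higher and none lower, where 2.34% of all genes were called higher and 1.58% lower. In Paternal_0.3Cyp, Maternal_0.3Cyp, Both_0.3Cyp and Paternal_10Cyp the subunit genes called higher numbered 4, 3, 3 and 4. Assembly genes numbered 10, 4, 5 and 3 higher and 0, 1, 0 and 2 lower. Translation factors called higher numbered 3, 0, 1 and 1, synthetases 2, 2, 1 and 1 and transcription genes 2, 2, 3 and 3. Only the assembly list had genes called lower. Of all genes, 15.4%, 10.9%, 10.5% and 10.7% were called higher and 12.2%, 12.8%, 11.8% and 10.8% lower.

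Most transcripts that these ribosomes translate were not called. Of 13 mitochondrially encoded messenger RNAs 2 rose in Maternal_10Cyp, with a median of 0.02, where 20.4% of all genes were called higher, and none was called in Paternal_0.3Cyp or Maternal_0.3Cyp, with medians of -0.09 and 0.01. The exceptions were mt-Atp8, an ATP synthase subunit, with log2 fold changes of 0.31 in Both_0.3Cyp, 0.55 in Paternal_10Cyp, 0.51 in Maternal_10Cyp and 0.55 in Both_10Cyp, and mt-Nd4l, a complex I subunit, with 0.41 in Maternal_10Cyp and 0.81 in Both_10Cyp, all called. Both are short genes that overlap a longer neighbour on the same strand, so that the split of their reads is uncertain. In Both_10Cyp mt-Atp6, the neighbour of mt-Atp8, fell by 0.81.

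Markers of cell types moved in the same comparisons. Cycling progenitor markers were called higher for 12, 11, 12, 8, 12 and 3 of 14 genes in Paternal_0.3Cyp, Maternal_0.3Cyp, Both_0.3Cyp, Paternal_10Cyp, Maternal_10Cyp and Both_10Cyp, with Cks2 at 23.6 ± 1.67 CPM in Maternal_10Cyp (n = 8) and 12.9 ± 3.99 CPM in Ctrl (n = 12, SD). Their summed level ran from 1001 to 1371 CPM in Maternal_10Cyp and from 664 to 1312 CPM in Ctrl. Markers of maturing neurons were called lower for 9, 9, 8, 8, 9 and 2 of 12 genes, and their summed level ran from 2895 to 3478 CPM in Maternal_10Cyp and from 3192 to 4453 CPM in Ctrl. Oligodendrocyte precursor markers were called lower for 3, 5, 5, 3, 6 and 1 of 6, and astrocyte markers for 2, 2, 3, 1, 4 and 0 of 6. Dorsal forebrain markers were called higher for 4, 3, 3, 4, 6 and 1 of 11 and lower for 1 each in Paternal_0.3Cyp and Maternal_10Cyp. Radial glia markers were mixed, with 5, 4, 4, 2, 6 and 0 of 11 called higher and 3, 2, 3, 2, 3 and 2 called lower. Of all genes, 15.4%, 10.9%, 10.5%, 10.7%, 20.4% and 2.34% were called higher in these comparisons. The shares called lower were 12.2%, 12.8%, 11.8%, 10.8%, 20.4% and 1.58%, in the same order. Adult erythroid markers were called higher for 5, 2, 2, 3, 0 and 0 of 7, and diencephalon markers for 6 of 9 in Paternal_0.3Cyp and for none in the other groups. Markers of ventral forebrain, microglia, endothelium, meninges and choroid plexus had 0 to 2 genes a list called in either direction in each group. Embryonic globins were called higher for 2 of 2 in Paternal_0.3Cyp and 1 of 2 in Both_10Cyp. The part of cell makeup in the members' differences was not tested.

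The members' median deviation was also set against the log2 summed level of the cycling progenitor markers. That marker measure is not a median deviation, unlike the one used for the short genes. Over 76 libraries Pearson's r was 0.418 (permutation p = 0.00014, adjusted 0.0002) and Spearman's rho 0.36 (permutation p = 0.0018, adjusted 0.0026). Without replicate 3 of Ctrl and replicate 4 of Paternal_0.3Cyp, the libraries farthest from the median of the markers, r was 0.402. Within batches r was 0.435 in batch 1 (34 libraries, permutation p = 0.011) and 0.518 in batch 2 (42 libraries, permutation p = 0.00024). The permutations disregarded group, and both measures were higher in the exposed groups than in Ctrl. These p-values thus do not separate the group difference from variation between libraries within a group. The difference between the correlations was not tested.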

How the data were processed

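Gene-level expected counts (estimated reads per gene) were deposited by the authors for 76 libraries and 14823 genes; the values are whole numbers, and every gene has at least 10 counts in at least 3 libraries. Per the submitters' processing notes, Trim Galore 0.5.0, Salmon 1.10.1 and mm10 were used. The annotation, the gene filter, the library preparation and strandedness are not given in the sources used here. Expected counts are not divided by transcript length, so a level in CPM compares samples for a gene and not genes with each other.

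Symbols, positions and transcript lengths (median over basic transcripts) came from GENCODE M21 (GRCm38), which matched 14810 genes and left 13 unmatched, and promoters from RefSeq (GRCm38.p6). Tests used edgeR 4.0.16 in R 4.3.3 with filterByExpr (14339 genes kept, 484 removed), TMM scaling and a robust quasi-likelihood fit of group, batch and sex on all libraries, 2-sided, with Benjamini-Hochberg adjustment over all genes tested. Standard errors are the fold change over the root of F. Alternatives used limma 3.58.1 (voom with quality weights), DESeq2 1.42.0 and sva 3.50.0, and the scripts were checked on simulated data. Levels are TMM-normalised CPM.

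The members, gene lists and settings were chosen with earlier results of these data known. Named genes are those with the 4 lowest p in the joint test, the 3 called members with the lowest p in each direction per exposed group, any called against the majority or between exposed groups or sexes (none), the 3 highest and lowest per kilobase, and the 3 most and least variable in Ctrl; from the other lists, up to 2 genes by lowest p in Maternal_10Cyp. Other genes named, such as Dhx30, Mars2 and mt-Atp6, were chosen after their values were seen.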

Additional observations from a re-analysis of the deposited data

Results flagged for a closer look

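Values of the 21 named members and the summed level of all members were searched for a library far from the others of its group, relative to the group's range, in groups of 8 or 10 libraries. Of 66 sets of values, 63 of single members and 3 of summed levels, 3 held such a library, where chance gives about 1 in 20. Mrpl23 was at 8.65 CPM in replicate 4 of Paternal_10Cyp, with the next library at 6.54 CPM. Mrpl2 was at 45.8 CPM in replicate 1 of Maternal_10Cyp, with the next at 37.4 CPM. Mrpl34 was at 72.0 CPM in replicate 2 of Both_10Cyp, with the next at 63.2 CPM. All 3 were the highest of their group and came from batch 1.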

How the results depend on the processing

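Counts of called members stayed within 1.5 times with DESeq2, with its size factors in edgeR, with no filter on low counts and with thinned counts, in all comparisons with Ctrl. Other settings moved them. In Paternal_0.3Cyp (58) limma gave 18, the groups compared alone 0, batch 1 alone 0, batch 2 alone 23, the log2 ratio of embryonic to adult globin counts as a covariate 1 and GC and length offsets 32 (29 higher, 3 lower). In Maternal_0.3Cyp (26) limma gave 42, no batch term 15, the groups alone 44, batch 1 alone 0, batch 2 alone 7, 2 surrogate variables 1, the globin ratio 0 and offsets 15. In Both_0.3Cyp (28) the same settings gave 56, 18, 57, 0, 0, 3 and 0, and the offsets 19 (16 higher, 3 lower). In Paternal_10Cyp (39) no batch term gave 15, the replicate block 15, batch 1 alone 6, batch 2 alone 4 and offsets 19 (18 higher, 1 lower). In Maternal_10Cyp (66) batch 1 alone gave 19, batch 2 alone 41 and offsets 42 (38 higher, 4 lower). In Both_10Cyp (12) limma gave 24, no batch term 0, the block 2, the groups alone 25, batch 1 alone 0, surrogate variables 2, the globin ratio 2 and the fit without libraries high in embryonic globins 0. The joint test (36) gave 59 with limma. Between exposed groups (0 each), limma gave 1 for Paternal_10Cyp minus Paternal_0.3Cyp, 10 for Maternal_10Cyp minus Maternal_0.3Cyp and 25 for Both_10Cyp minus Maternal_10Cyp. Members called in these comparisons with Ctrl were all higher except under the offsets. For limma, no batch term, the replicate block and batch 2 alone, the share of all genes called against Ctrl is not given here. The same holds for the fit without libraries high in embryonic globins. These counts therefore cannot be read as particular to the members. The cause of these changes was not tested.

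The fits without replicate 8 of Paternal_0.3Cyp and without the 7 libraries that stood apart were chosen after seeing the data. Without the 7, the counts were 0, 47, 56 and 60 in Paternal_0.3Cyp, Maternal_0.3Cyp, Both_0.3Cyp and Paternal_10Cyp, 61 in the joint test, 1 for Paternal_10Cyp minus Paternal_0.3Cyp and 31 for Both_10Cyp minus Maternal_10Cyp. Libraries of the exposed group and of Ctrl were left out 1 at a time. The counts then ran from 23 to 60 in Paternal_0.3Cyp, 17 to 31 in Maternal_0.3Cyp and 17 to 39 in Both_0.3Cyp. They ran from 23 to 51 in Paternal_10Cyp, 61 to 69 in Maternal_10Cyp and 0 to 22 in Both_10Cyp. Leaving out replicate 8 of Paternal_0.3Cyp gave the 23 in its own group. The separate fit without it gave 48, 57, 58, 72 and 45 in the other groups, 62 in the joint test and 1 for Paternal_10Cyp minus Paternal_0.3Cyp. Counts moved by over 1.5 times without replicate 5 of Maternal_0.3Cyp (17), replicates 7 and 8 of Ctrl in Both_0.3Cyp (17 and 18) and replicates 2 and 5 of Paternal_10Cyp (23 each). In Both_10Cyp they moved without replicates 1, 3, 6, 7, 8, 9 and 12 of Ctrl (19, 5, 22, 1, 2, 3 and 3) and without replicates 2, 3, 7 and 8 of Both_10Cyp (5, 21, 0 and 0). Calls over all genes, in either direction, moved too in these refits. They ran from 2262 to 4960 in Paternal_0.3Cyp, 2166 to 4103 in Maternal_0.3Cyp and 2042 to 4013 in Both_0.3Cyp. In Paternal_10Cyp they ran from 1709 to 3840 and in Maternal_10Cyp from 5056 to 6235. In Both_10Cyp they were 1625 without replicate 6 of Ctrl, 63 without replicate 7 of Ctrl and 29 without replicate 8 of Both_10Cyp. The joint test called 3106 genes with all libraries, 4565 without replicate 8 of Paternal_0.3Cyp and 5177 without the 7 libraries.

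Replicate numbers did not pair libraries: same-numbered libraries of different groups had a median correlation of 0.0086 over 210 pairs, 58 of them over 0.1, and 4 of 76 libraries correlated best with their own number. With the block, counts were 57, 21, 41, 15, 49 and 2 in Paternal_0.3Cyp, Maternal_0.3Cyp, Both_0.3Cyp, Paternal_10Cyp, Maternal_10Cyp and Both_10Cyp and 25 in the joint test. Of the named members' log2 fold changes none reversed under any setting, 9 of 20 lost their call with the globin ratio, 14 in batch 1 alone and 5 in batch 2 alone. Members near 1 CPM, such as Mrpl1, are limited by depth.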
